A study of Mus musculus with 3 samples.

Results

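The endothelial cells of the mouse pituitary were the 1040 cells, of 37474 in all, that the authors' deposited cluster table assigned to cluster 9. The TpitWT library gave 207 of these cells (of 11222), the TpitHT library 281 (of 12839) and the TpitKO library 552 (of 13413). The label was checked against 6 endothelial genes, Plvap, Flt1, Kdr, Emcn, Cdh5 and Egfl7, and the values of all 6 bore it out in every library.

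Single-cell RNA was sequenced from dissociated whole pituitaries of 3 genotypes at Tpit, the transcription factor encoded by Tbx19, with 1 library per genotype. The labels name the genotypes TpitWT, TpitHT and TpitKO. They do not spell out HT, and they give neither the kind of allele, nor the age or sex of the mice, nor how many pituitaries went into a library. Dead cells had been removed by propidium iodide sorting, and libraries had been made with Chromium 3′ v3 reagents.

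With 1 library per genotype, no difference between genotypes could be tested. All intervals are 95% intervals that cover counting error only, not variation between animals or libraries. Levels are given as counts per 1000000 counts of the cluster (CPM), always in the order TpitWT, TpitHT and TpitKO unless stated. The deposited tables hold sums of counts per cluster and not counts per cell, so intervals of CPM treat each count as independent and are too narrow where counts lie in few cells. Whether reads had been collapsed to molecules is not given in the sources used here.

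Endothelial cells line blood vessels, respond to VEGF through the receptors KDR and FLT1, and hold to one another through VE-cadherin, the product of Cdh5. Capillaries of the anterior pituitary are fenestrated: their walls carry pores closed by diaphragms built from PLVAP, through which hormones pass into the blood. The endothelium of the brain instead forms a barrier, with few fenestrae and many transporters. Tpit is needed for the corticotropes and melanotropes, the pituitary cells that make proopiomelanocortin.

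Cluster 9 held 747197, 1220321 and 2345797 counts, or 3610, 4343 and 4250 counts per cell on average, against 9561, 11869 and 9935 over all cells. Mitochondrial genes took 1.46%, 1.54% and 1.60% of its counts. Of the targeted gene, Tbx19, cluster 9 held 3, 6 and 0 counts, and its level over all cells was 17.6, 12.4 and 0.69 CPM. Barcodes shared by a pair of libraries numbered 36 to 40, and none of them lay in cluster 9 of both libraries.

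Transcripts of hormone-producing cells were present in cluster 9, and more so in TpitWT. The 7 hormone genes Gh, Prl, Pomc, Cga, Lhb, Fshb and Tshb took 13.8%, 5.28% and 5.51% of the counts of cluster 9, against 35.9%, 33.3% and 32.8% of the counts of the other cells. Gh, which encodes growth hormone, reached 38.8%, 18.5% and 16.6% of its level over all cells. For Gh, and for the 7 genes summed, TpitHT and TpitKO were close to each other and TpitWT stood apart. This order did not hold for every hormone gene: Pomc reached 14.7%, 5.74% and 18.3% of its level over all cells, and Tshb 53.7%, 96.9% and 49.0%. The part of these transcripts in the ratios to TpitWT was not tested, and ratios of TpitKO to TpitHT are given beside them.

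Endothelial cells made up 1.84% (interval 1.60 to 2.11) of the TpitWT library, 2.19% (1.94 to 2.46) of the TpitHT library and 4.12% (3.79 to 4.47) of the TpitKO library. The share in TpitKO was 2.23 times (1.90 to 2.63) that in TpitWT and 1.88 times (1.63 to 2.18) that in TpitHT. TpitHT over TpitWT came to 1.19 times, with an interval of 0.988 to 1.43 that includes equality. Clusters 6 and 7, in which Pomc took between 130531 and 223310 CPM, held 1081 and 730 TpitWT cells and no TpitKO cell. Leaving them out of the total raises the endothelial share of TpitWT and TpitHT and leaves that of TpitKO unchanged. Outside these clusters the endothelial share was 2.20%, 2.54% and 4.12%, and TpitKO over TpitWT came to 1.87 times (1.59 to 2.21). With cluster 11 left out as well it came to 1.99 times (1.69 to 2.35). Among the 13 clusters with at least 50 cells in both TpitWT and TpitKO, cluster 9 had the fourth highest ratio of shares, behind clusters 11, 12 and 3. These are shares of sorted, dissociated cells and not of the tissue.

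In the deposited UMAP, a map that places cells with similar expression close together, cluster 9 formed 1 compact island. Its cells had, on average, 98.3% of their 15 nearest neighbours within the cluster, and 97.5%, 98.7% and 98.5% by library. The median positions of the 3 libraries lay within the same island, at 8.74, 8.61 and 8.45 on the first axis and -2.31, -2.24 and -2.11 on the second. Of the 1040 cells, 17 (6, 4 and 7) lay more than 2 units from the centre of the cluster. The neighbours outside cluster 9 were most often cells of clusters 3 and 15, with 0.378% and 0.359% of all neighbours.

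**Figure D1:**
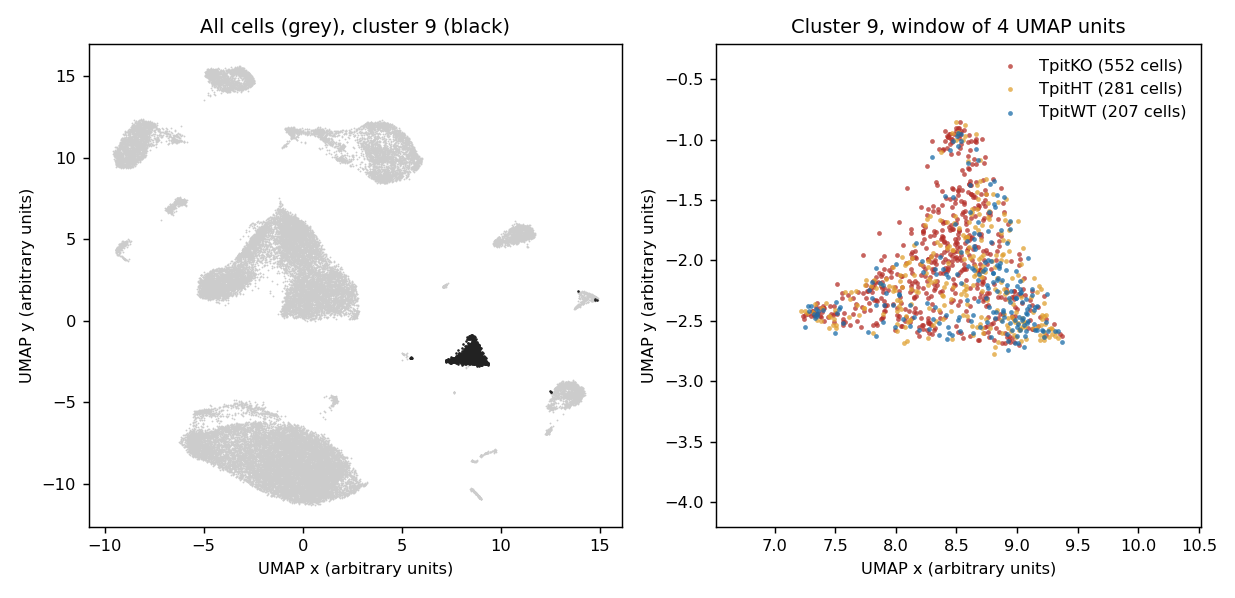
Deposited UMAP of all 37474 cells with cluster 9 in black (left), and the cells of cluster 9 coloured by genotype in a window of 4 units (right); both axes are in arbitrary UMAP units and each point is a cell. Cells of the 3 libraries share 1 island, and 17 cells of cluster 9 lie outside the window.

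The defining endothelial genes were at high levels in cluster 9 and near 0 in the other cells of each library. Plvap, at chromosome 8, 71497765 to 71511752, minus strand of GRCm38, was read at 2600.4, 3346 and 2449 CPM and found in 96.6%, 100% and 98.4% of the cells. In the other cells it was read at 1.94, 2.31 and 1.8 CPM and found in 1.21%, 1.63% and 1.21% of cells. Flt1, which encodes a VEGF receptor that also acts as a decoy, stood at 819, 1051 and 946 CPM in cluster 9 and 0.206, 0.205 and 0.313 CPM elsewhere. Kdr, the main signalling receptor for VEGF, was found at 986, 1113 and 980.5 CPM in 80.2%, 89.7% and 87.9% of the cells. The capillary and venous glycoprotein gene Emcn gave 1229, 1459 and 1548 CPM, and Cdh5 gave 474, 592 and 618 CPM. Egfl7, a secreted factor of endothelial cells, gave 866, 1283 and 1099 CPM. For all 6 genes the levels in cluster 9 lay far above those of the other cells in each library, with no overlap.

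Of 1446 genes read at 100 CPM or more in cluster 9 of all 3 libraries, 239 (16.5%) were at least 10 times higher there than in the other cells in each library. Clusters were made from these same genes, so these ratios describe the cluster and test nothing. The 20 genes with the highest ratios included the VEGF receptor genes Flt1, Kdr and Flt4, the angiopoietin receptor gene Tek, the apelin receptor gene Aplnr and the guidance receptor gene Robo4. Sox18, a transcription factor of developing vessels, was 2546, 2098 and 2214 times higher in cluster 9 than in the other cells. Irx3, a homeobox gene, was 2453, 3372 and 1942 times higher. Fabp4, a fatty acid binding protein, and Gpihbp1, which holds lipoprotein lipase on the capillary wall, were also among them. The ratio was 2613, 2225 and 1729 for Fabp4 and 4848, 2880 and 1950.2 for Gpihbp1. Igfbp3, a carrier of insulin-like growth factors, was read at 2607, 3896 and 3389 CPM against 1.41, 1.4 and 1.68 elsewhere. The remaining members of the 20 were Adgrl4, Fgd5, Plvap, Grrp1, Exoc3l2, Emcn, Lims2, Cldn5 and Clec1a.

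**Figure D2:**
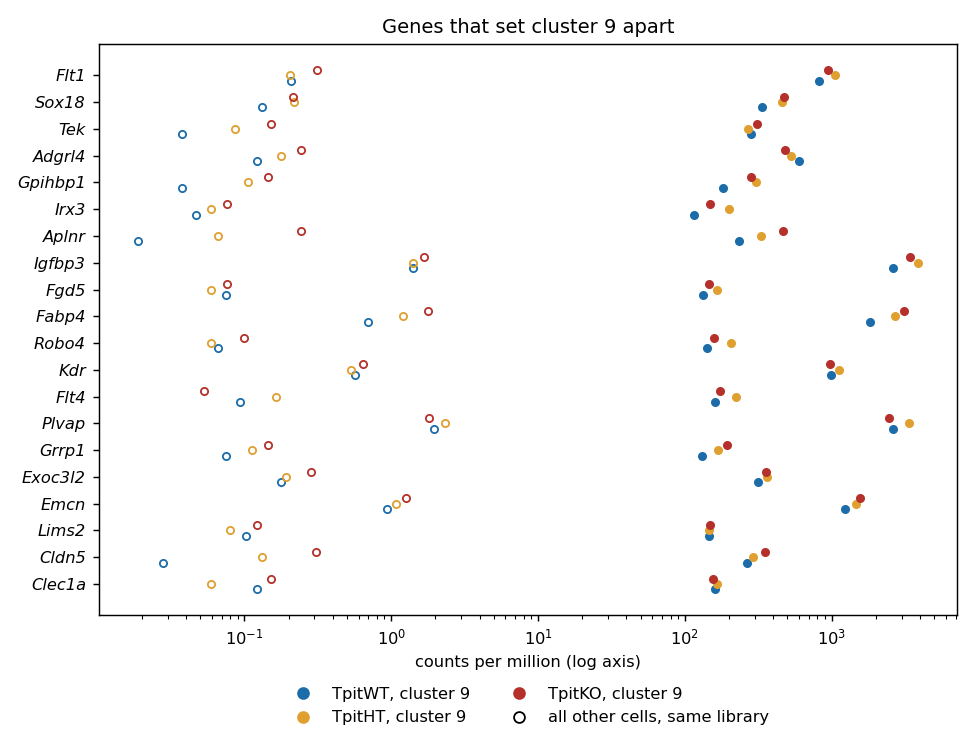
Levels of the 20 genes with the highest ratios of cluster 9 to other cells, in CPM on a log axis; filled points are cluster 9 and open points all other cells of the same library, coloured by genotype. Every filled point lies at 100 CPM or above and every open point below 2.5 CPM.

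Many endothelial promoters are bound by factors of the ETS family, which recognise a GGAA core. RefSeq promoters of GRCm38.p6 were at hand for 13 of these 20 genes and were searched, over the 250 bases before the start site, for CCGGAAG and CAGGAAG on both strands. Both cannot match at the same position. Of the 13 genes, 4 (30.8%) held a match, all of them to CAGGAAG, against 5125 of the 27025 genes in the table with a match to either motif. By promoters, 5585 of 32851 held one. Emcn is among the 13 genes, whereas Egfl7 is not among the 20 and is not counted in the 4. The promoters of Emcn and of the first start of Egfl7, both defining genes of the cluster, are shown because they hold matches, which stand in capitals. They were chosen after the search, are written 5′ to 3′ along the gene, and lie on the plus strand at chr3:137340828-137341077 and chr2:26580833-26581082.
Emcn: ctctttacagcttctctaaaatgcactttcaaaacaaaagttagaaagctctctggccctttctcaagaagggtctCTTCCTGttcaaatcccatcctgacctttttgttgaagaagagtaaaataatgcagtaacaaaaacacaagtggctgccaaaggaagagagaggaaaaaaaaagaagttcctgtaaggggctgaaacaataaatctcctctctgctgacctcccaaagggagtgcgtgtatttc
Egfl7: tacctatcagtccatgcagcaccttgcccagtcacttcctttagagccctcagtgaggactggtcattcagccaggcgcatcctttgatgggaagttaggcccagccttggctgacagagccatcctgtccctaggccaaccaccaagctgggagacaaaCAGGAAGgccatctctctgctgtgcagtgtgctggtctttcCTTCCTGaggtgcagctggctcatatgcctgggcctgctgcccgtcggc
A match is a description of the letters and not a binding site. The windows of Flt1, Kdr and Tek held neither motif. At other starts of Egfl7, the windows at chr2:26583615-26583864 and chr2:26586386-26586635 held 1 match and 0 matches.

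Genes of fenestrae and caveolae were read throughout, and those of the brain barrier in part. All 18 listed genes of fenestrae, caveolae and transport had at least 50 counts in TpitWT and TpitKO together. Caveolae are flask-shaped pits of the cell membrane, and Cavin2, which shapes them, was read at 341, 403 and 312 CPM. The transporter Abcg2 gave 523, 538 and 425 CPM and the surface protein Ly6c1 522, 542 and 538 CPM, and both belong to the barrier list. Of the 20 genes of that list, 9 had enough counts and 5 had at most 3 counts in each of the 3 libraries, and the list summed to 2819.9, 3131 and 3084 CPM against 1072, 1207 and 1002 in the other cells. Slco1c1, a thyroid hormone transporter of the brain barrier, had no count in any library, and Mfsd2a, its lipid transporter, had 0, 0 and 2 counts. The amino acid transporter Slc7a5 had 1, 1 and 3 counts, the tight junction gene Ocln 2, 0 and 0 and the Wnt effector Lef1 0, 0 and 2. The limit that a count of 0 allows, 3 counts, corresponds to 4.02, 2.46 and 1.28 CPM in the 3 libraries.

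Genes of arteries and veins were read unevenly. Of 20 arterial genes, 13 had enough counts to compare. Bmx, Gkn3 and Cytl1, all typical of arteries, had no count in any library. Efnb2, an arterial ephrin, was found in 26.1%, 36.3% and 44.6% of cells at 129.8, 169 and 212 CPM, and the Notch ligand Dll4 in 15.9%, 28.8% and 26.6% at 73.6, 116 and 104 CPM. Of 15 venous genes, 5 had enough counts, led by Apoe, which the other cells expressed too, and Nr2f2, a transcription factor of venous identity, at 190.04, 228 and 160.3 CPM. The leukocyte adhesion genes Selp and Sele had 0, 0 and 4 counts (Selp) and 0, 0 and 6 counts (Sele), and Ackr1, a marker of venules, had 0, 0 and 1. In all, 4 of the 20 arterial and 2 of the 15 venous genes had at most 3 counts in every library.

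Several defining genes of other vessel and stromal cells were at 0. Lyve1, Ccl21a and Reln, markers of lymphatic vessels, had no count, and Prox1, the lymphatic master regulator, was read at 10.7, 18.8 and 9.38 CPM against 23.5, 24.9 and 35.4 in the other cells. Flt4, the receptor for VEGF-C, was high at 159, 223 and 174 CPM although it is often used as a lymphatic marker. Acta2 and Myh11, the contractile genes of smooth muscle, had no count, and Pdgfrb, the growth factor receptor of pericytes, had 7, 0 and 2 counts. Kcnj8, a potassium channel gene often used to mark pericytes, was nevertheless found in 18.4%, 31% and 22.6% of cells at 119, 219.6 and 133 CPM. The 14 mural genes summed to 262, 311 and 235 CPM against 5.63, 9.75 and 12.9 in the other cells, so as a list they were higher in cluster 9, with Kcnj8 the largest part of the sum. Whether a few mural cells lay in the cluster was not tested. Col1a1, Lum and Dpt, genes of fibroblasts, had no count, and the 11 fibroblast genes summed to 66.9, 20.5 and 23.9 CPM against 132, 155 and 214 in the other cells. The 11 macrophage genes summed to 85.7, 154 and 140.3 CPM against 314, 354 and 513, and the 8 lymphocyte genes to 5.35, 11.5 and 12.4 CPM. Genes of pituitary stem cells summed to 134, 162 and 142 CPM and those of pituicytes, the glia of the posterior lobe, to 14.7, 16.4 and 30.7 CPM.

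Some endothelial genes lay in a minority of the cells. If the counts of a gene fell on cells at random, Cldn5, the tight junction gene that seals brain capillaries, would have been found in 61.8%, 71.9% and 77.7% of cells. It was found in 15.5%, 24.2% and 28.4%, or 0.25, 0.336 and 0.366 of that share. Genes with 0.5 to 2 counts per cell reached a median of 0.777, 0.767 and 0.775 of it, and Pecam1, a gene of all endothelial cells, 0.811, 0.851 and 0.8. Gpihbp1 reached 0.461, 0.407 and 0.456 and Esm1, a marker of sprouting tip cells, 0.47, 0.388 and 0.414. These 3 genes were picked out after their values were seen. In all 3 libraries Cldn5, Gpihbp1 and Esm1 lay further below the random share than that median, which covers genes with 0.5 to 2 counts per cell only. Without counts per cell it was not tested whether they shared the same cells.

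Of 7547 genes with at least 50 counts in cluster 9 of TpitWT and TpitKO together, 27 (0.358%) were higher and 25 (0.331%) were lower in TpitKO past the fold used here. To pass it, a gene needed a log2 ratio to TpitWT of 1 or more (or -1 or less) and a ratio to TpitHT of 0.5 or more the same way, with 10 CPM added to both values. The minimum is on counts, and cluster 9 of TpitKO held 2345797 counts against 747197 in TpitWT. A gene high in TpitKO alone therefore enters at a lower CPM than one high in TpitWT alone. Among genes of low level, in the lists too, this tilts the genes compared toward those higher in TpitKO. By any size, 60.4% of genes were higher in TpitKO than in TpitWT, with a median log2 ratio of 0.09, and 55.6% were higher and 44.4% lower than in TpitHT. With hormone and mitochondrial genes left out of the totals the median moved by -0.11, and 48.0% of genes were higher. Of the 25 lower genes, 12 had a level in TpitWT below that of the other cells, among them Gh, Pomc and other genes of hormone-producing cells. The genes described next were read at 50 CPM or more and at least 2 times above the other cells where they were higher.

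Ccn2 had the lowest ratio. This gene, at chromosome 10, 24595442 to 24598683, plus strand, encodes a matrix protein that cells under tension secrete. It was read at 319.9 CPM (281 to 363) in TpitWT, 266 CPM (238 to 297) in TpitHT and 29.8 CPM (23.3 to 37.7) in TpitKO. The level was high in TpitWT and TpitHT and low in TpitKO, with intervals that do not overlap. TpitWT was 10.7 times (interval 8.18 to 14.2) and TpitHT was 8.92 times (interval 6.87 to 11.7) the level of TpitKO. Cells with a count made up 31.4%, 30.2% and 7.43%, so fewer cells held the transcript in TpitKO, against 0.563%, 0.804% and 0.933% of the other cells. Among those other cells of TpitKO, cluster 18 held Ccn2 at 525 CPM in 57.9% of its cells, from 386 counts.

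Mmrn1, at chromosome 6, 60924976 to 60989378, plus strand, encodes a multimerin that platelets and some endothelial cells store. It stood at 65.6, 60.6 and 8.95 CPM and was found in 13%, 14.6% and 2.72% of cells, again low in TpitKO alone. TpitWT was 7.33 times (interval 4.31 to 12.9) the level of TpitKO. Mmrn1 is also used as a lymphatic marker. Of the 8 genes of that list, Lyve1, Ccl21a and Reln had no count, whereas Flt4 and Prox1 were read, as given above. The list summed to 245, 302 and 193 CPM against 30.0, 31.5 and 46.1 in the other cells, with Flt4 the largest part. Whether lymphatic cells lay in the cluster was not tested. Oit3, a secreted protein known from liver, followed the same order at 66.9, 61.5 and 25.2 CPM. G0s2, an inhibitor of fat breakdown, was read at 183, 173 and 63.9 CPM and Fgl2, a fibrinogen-like protein with prothrombinase activity, at 112, 152 and 46.5 CPM. In Mmrn1, Oit3 and G0s2 TpitWT and TpitHT lay close together, and in all 4 genes TpitKO lay below both.

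Xdh and Steap4 were graded across the genotypes. Xdh, which encodes the xanthine oxidase that makes uric acid, stood at 109.7, 63.9 and 26 CPM, and Steap4, a metalloreductase, at 64.2, 27.9 and 14.1 CPM. TpitHT thus lay between the other genotypes in both. Sult1a1, a sulfotransferase, was read at 100.4, 129 and 43.9 CPM, with TpitHT highest. The log2 ratios of TpitKO to TpitWT for these 3 genes were -1.73, -1.63 and -1.03.

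Igf1 had the highest log2 ratio, 3.08, among the genes that were higher in TpitKO. It encodes insulin-like growth factor 1 and lies at chromosome 10, 87858265 to 87937042, plus strand. It was read at 4.02 CPM (0.828 to 11.7) in TpitWT, 27.9 CPM (19.3 to 38.9) in TpitHT and 109 CPM (95.8 to 123) in TpitKO, from 3, 34 and 255 counts. The 3 levels did not overlap, and TpitHT lay between. TpitKO was 3.9 times (interval 2.72 to 5.76) the level of TpitHT and 27.1 times (interval 9.16 to 132) that of TpitWT, where only 3 counts stand behind the lower value. Igf1 was found in 1.45%, 5.69% and 23.6% of the cells of cluster 9 and in 1.36%, 2.73% and 5.71% of the other cells.

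Aqp1, a water channel of capillaries, was read at 1.34, 16.4 and 55 CPM from 1, 20 and 129 counts. TpitKO was 3.36 times (interval 2.09 to 5.68) the level of TpitHT and 41.1 times (interval 7.25 to 1635) that of TpitWT. The counts of Aqp1 lay in only 1, 7 and 40 cells (0.483%, 2.49% and 7.25%). In TpitHT and TpitKO this was 0.363 and 0.348 of the share that random placement would give, so these intervals are too narrow. Egln3, an oxygen-sensing prolyl hydroxylase, stood at 8.03, 19.7 and 54.6 CPM. Lamc1, the laminin gamma 1 chain of the basement membrane, stood at 50.9, 86 and 178 CPM and was found in 11.1%, 23.8% and 41.8% of cells. Itga6, an integrin chain that binds laminin, stood at 154, 226 and 329 CPM. In all 4 genes TpitKO was highest and TpitHT lay between TpitWT and TpitKO.

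Sox17, a transcription factor of arterial endothelium, was read at 38.8, 47.5 and 103 CPM and found in 10.1%, 14.6% and 24.8% of cells. TpitKO was 2.66 times (interval 1.8 to 4.05) the level of TpitWT and 2.17 times (interval 1.62 to 2.94) that of TpitHT. Tap1, which carries peptides for antigen presentation, gave 18.7, 36.9 and 64.4 CPM, and Ahr, the aryl hydrocarbon receptor, 26.8, 44.3 and 73.7 CPM. Slfn2, Klf10, a transcription factor induced by TGF-beta, and Cdc14a, a phosphatase, completed the 11 genes, with log2 ratios to TpitWT of 1.77, 1.17 and 1.16.

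**Figure D3:**
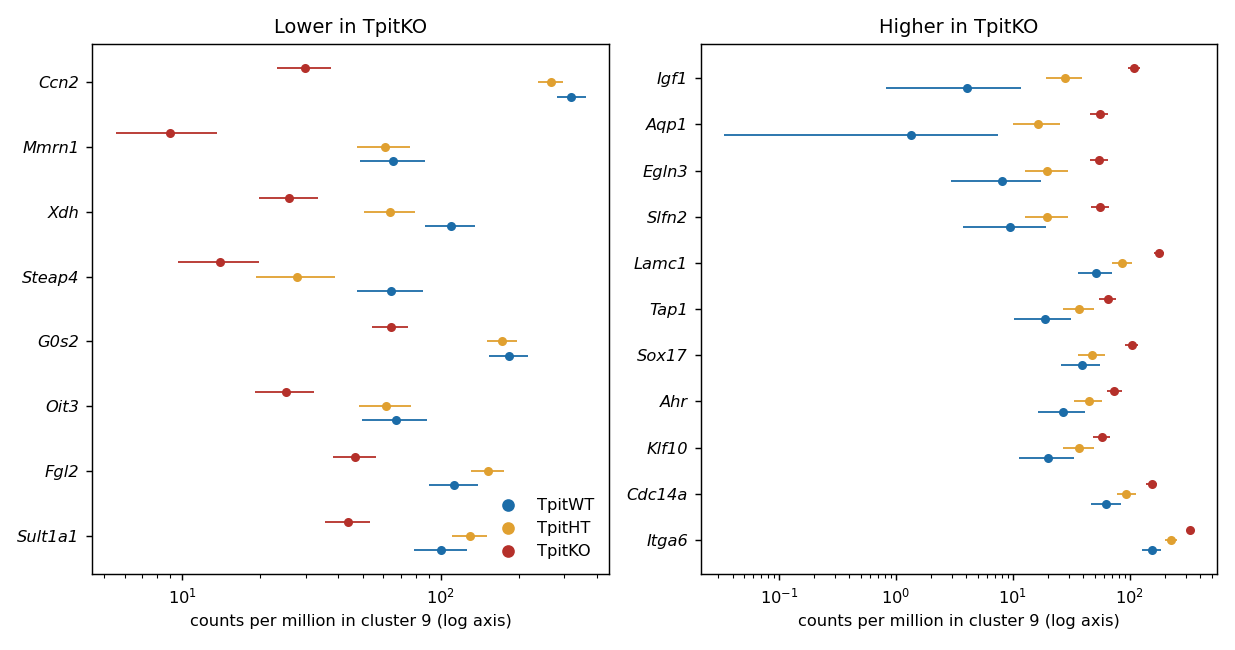
Levels in cluster 9 of the 8 genes lower (left) and 11 genes higher (right) in TpitKO, in CPM on a log axis, with exact 95% Poisson intervals that cover counting error only. Ccn2 lies at 319.9, 266 and 29.8 CPM, and Igf1 at 4.02, 27.9 and 109 CPM, in TpitWT, TpitHT and TpitKO.

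Endothelial identity genes had small median ratios of TpitKO to the other genotypes. All 21 identity genes had enough counts, and 17 were higher in TpitKO than in TpitWT, against 60.4% of all genes. None passed the fold, but of all genes only 0.358% passed it upward and 0.331% downward, so for 21 genes this says little. Their median log2 ratio of TpitKO to TpitWT was 0.21, which turned to -0.21 once free RNA was subtracted. To TpitHT it was -0.06. Cd34, a surface sialomucin, had the highest ratio to TpitWT at 0.76, with levels of 143, 179 and 249.8 CPM. Of 25 endothelial transcription factors, 20 had enough counts and 1, Sox17, passed the fold. Klf2, which responds to blood flow, was read at 1445, 1759 and 2118 CPM. The VEGF receptors differed little: Kdr had a log2 ratio of -0.01 to TpitWT and Flt1 of 0.21. Of the 26 receptors and ligands of the VEGF, angiopoietin and TGF-beta families, 20 had enough counts. Of these, 15 were higher in TpitKO than in TpitWT, against 60.4% of all genes, and none passed the fold. Vegfc, a ligand of Flt4, gave 57.5, 118 and 91.2 CPM.

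Basement membrane genes were mostly higher in TpitKO. These genes encode the collagen and laminin sheet on which the endothelium rests. Of 17 genes, 14 had enough counts, 13 of these were higher in TpitKO than in TpitWT against 60.4% of all genes, and 1, Lamc1, passed the fold. The median log2 ratio of TpitKO was 0.58 to TpitWT and 0.21 to TpitHT, against 0.09 and 0.03 over all genes. With free RNA subtracted the median to TpitWT was 0.17, and without the count minimum it was 0.45 over all 17 genes. Sparc, a collagen-binding matrix protein, stood at 1927, 2759.9 and 3688 CPM. The type IV collagen genes Col4a1 and Col4a2 stood at 828, 1186 and 1244 CPM (Col4a1) and 356, 551 and 637 CPM (Col4a2). Col15a1 gave 106, 179 and 217 CPM and the perlecan gene Hspg2 265, 353 and 399.9 CPM. In these 5 genes TpitWT was lowest and TpitKO highest, with TpitHT between. Nid2, at 30.8, 34.4 and 22.2 CPM, was the only member with a lower value in TpitKO than in TpitWT.

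Of the 13 arterial genes with enough counts, 10 were higher in TpitKO than in TpitWT against 60.4% of all genes, and 2, Sox17 and Unc5b, passed the fold against 0.358%. Unc5b, a netrin receptor of tip cells and arteries, was read at 8.03, 20.5 and 43.9 CPM, Sema3g at 13.4, 28.7 and 38.8 CPM and Gja4, a gap junction gene, at 8.03, 9.83 and 24.3 CPM. The median log2 ratio of the list was 0.61 to TpitWT, or 0.30 with free RNA subtracted, and 0.33 to TpitHT. Without the count minimum the median to TpitWT was 0.45 over all 20 genes. Mgp, Clu and Fbln5 were lower than in TpitWT, and Mgp and Clu were also expressed by other cells. Of 12 genes of the Notch pathway, which takes part in arterial fate, 7 had enough counts. Of these, 6 were higher in TpitKO than in TpitWT against 60.4% of all genes, and Notch4 was lower. All 7 were higher in TpitHT than in TpitWT, against 57.1% of all genes. Their median log2 ratio over 7 genes was 0.60 for TpitKO over TpitWT, or 0.22 with free RNA subtracted, 0.60 for TpitHT over TpitWT and -0.04 for TpitKO over TpitHT. Without the count minimum the median of TpitKO over TpitWT was 0.53 over all 12 genes. Hes1, a Notch target, was read at 126, 297 and 246 CPM and Notch1 at 126, 202 and 197 CPM. Both were low in TpitWT, the library with the larger share of hormone transcripts, and its part in the difference was not tested.

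Most interferon response genes were higher in TpitKO than in either other library. All 17 genes had enough counts. Of these, 14 were higher in TpitKO than in TpitWT, 17 of 17 were higher than in TpitHT against 55.6% of all genes, and none passed the fold. The median was 0.47 to TpitWT, or 0.11 with free RNA subtracted, and 0.51 to TpitHT. Ifitm3, which blocks the entry of viruses, was read at 1087, 1616 and 2053 CPM. Bst2, which tethers budding viruses, stood at 365, 371 and 595 CPM, and the GTPase gene Iigp1 at 455, 438 and 677 CPM. TpitWT and TpitHT were close for Bst2 and Iigp1, with TpitKO above both. The median of antigen presentation genes was 0.23 to TpitWT, or -0.09 with free RNA subtracted, and 0.22 to TpitHT. Of these, 11 of 16 were higher in TpitKO than in TpitWT, near the 60.4% of all genes, and Tap1 passed the fold. The class I genes H2-D1 and H2-K1 gave 3211, 3849.8 and 4182 CPM (H2-D1) and 1875, 2299 and 2721 CPM (H2-K1), and the immunoproteasome gene Psmb8 214, 298 and 403 CPM. The class II genes Cd74, H2-Eb1 and H2-Ab1 were instead highest in TpitWT, at 313, 89.3 and 196 CPM for Cd74, which was found in 25.1%, 5.69% and 14.1% of cells. The 11 macrophage genes, given above, were lowest in TpitWT, and the part of immune cells in the class II levels was not tested.

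Genes that glucocorticoids induce in many tissues were mostly lower in TpitKO. Of 22 genes, 15 had enough counts, 12 of these were lower in TpitKO than in TpitWT against 39.6% of all genes, 13 were lower than in TpitHT against 44.4%, and 3, Cebpd, Ddit4 and Sult1a1, passed the fold. The median log2 ratio was -0.42 to TpitWT and -0.46 to TpitHT, and 0.00 for TpitHT over TpitWT. Cebpd, a transcription factor, stood at 321, 255 and 142 CPM and Ddit4, an inhibitor of mTORC1, at 73.6, 51.6 and 23 CPM. The metallothionein gene Mt1 stood at 305, 161 and 116 CPM, and both it and Cebpd lay below their levels in the other cells in each library. Sgk1, a kinase, gave 265, 393 and 206 CPM, with TpitHT highest. Tsc22d3, which encodes the glucocorticoid-induced leucine zipper, did not follow the list, at 69.6, 149 and 126 CPM, and Dusp1 gave 1160.3, 1164 and 1206 CPM.

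Fkbp5, which encodes a chaperone of the glucocorticoid receptor, had too few counts to enter the comparison, with 30, 66 and 9 counts, and is described here after its values were seen. It was read at 40.2 CPM (27.1 to 57.3) in TpitWT, 54.1 CPM (41.8 to 68.8) in TpitHT and 3.84 CPM (1.75 to 7.28) in TpitKO. TpitKO lay below both other libraries without overlap of the intervals, and TpitWT was 10.5 times (interval 4.84 to 25.1) its level. In the other cells the levels were 45.4, 48.7 and 21.5 CPM. The receptor gene itself, Nr3c1, was also looked up afterwards and gave 139, 159 and 199.5 CPM.

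**Figure D4:**
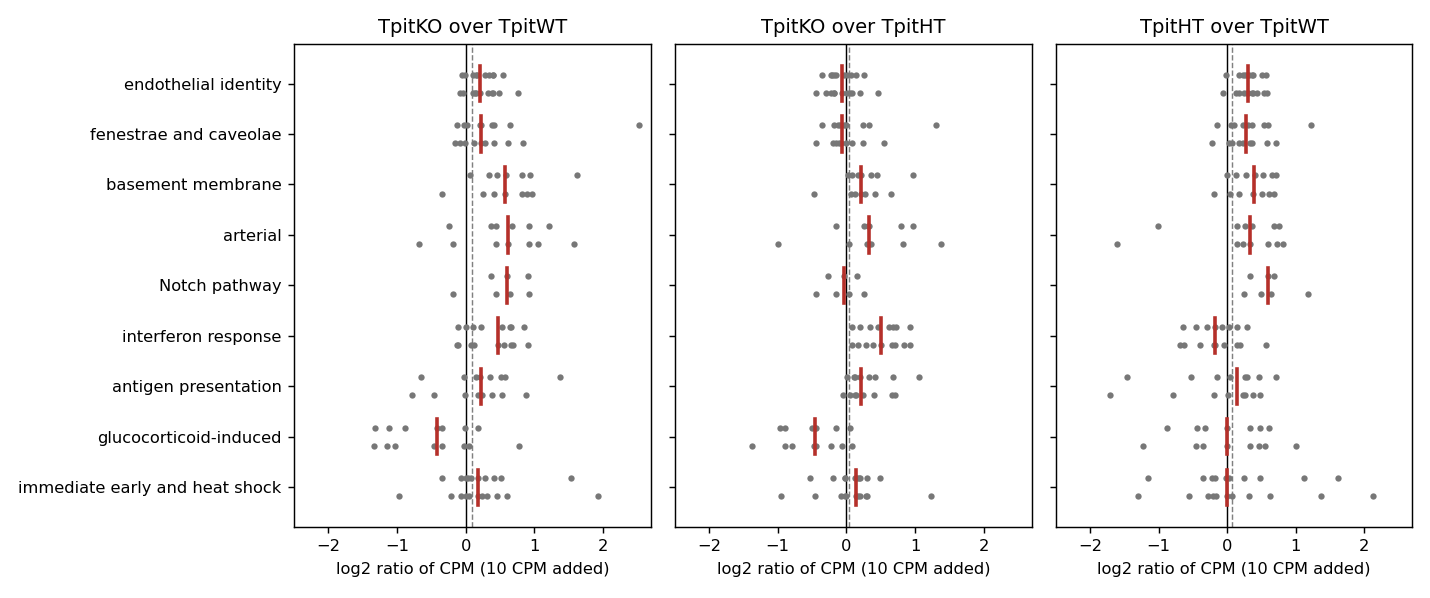
Log2 ratios between genotypes in cluster 9 for the members of 9 gene lists with at least 50 counts in TpitWT and TpitKO together; grey points are genes, red bars list medians, and the dashed line the median of all 7547 genes. The glucocorticoid-induced list has medians of -0.42 against TpitWT and -0.46 against TpitHT, and the interferon list 0.47 and 0.51.

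The capillary, sprouting, lipid handling and hypoxia lists passed the fold in at most 1 gene each. Of all genes, 0.358% passed it upward and 0.331% downward. Of 16 capillary genes, 11 had enough counts and 7 of these were higher in TpitKO than in TpitWT, near the 60.4% of all genes. Aplnr, the receptor for apelin, was read at 234, 329 and 466 CPM and Rgcc, a regulator of the cell cycle, at 637, 954 and 554 CPM. Of 19 sprouting genes, 16 had enough counts and 12 were higher, against the same share. Of 15 lipid handling genes, 8 had enough counts, with Fabp4 at 1815, 2694 and 3103 CPM and Plpp1 at 1322, 1902 and 1162 CPM. Of 16 genes of hypoxia and glycolysis, 12 had enough counts and 8 were higher, again near that share. Only Egln3 of that list passed the fold, while Ldha, which makes lactate, gave 155, 212 and 266 CPM and Hif1a 61.6, 54.9 and 60.1 CPM.

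Transcripts of dividing cells were sparse. Mki67, which marks dividing cells, was found in 1.45%, 2.14% and 1.09% of cells, and Top2a in 1.45%, 1.78% and 1.27%. These are shares of cells with a count, at 3610 to 4343 counts per cell on average, and do not give the share of cells in division. In the other cells Mki67 was found in 0.354%, 0.247% and 0.257% of cells.

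Between TpitHT and TpitWT, 64 of 5774 genes (1.11%) were higher and 57 (0.987%) lower in TpitHT past a log2 ratio of 1. The heat shock genes Hspa1a and Hspa1b, chaperones induced by stress, were read at 181, 823 and 714 CPM (Hspa1a) and 182, 579 and 546 CPM (Hspa1b). They were low in TpitWT and high in both other libraries. In the other cells Hspa1a was also lowest in TpitWT, at 74.4, 153 and 163 CPM. Ednrb, the endothelin B receptor, was likewise low in TpitWT alone, at 66.9, 193 and 188 CPM. Cyp26b1, which breaks down retinoic acid, was high in TpitHT alone, at 95, 240.1 and 68.6 CPM, and Art3 stood at 12, 52.4 and 29 CPM. Lower in TpitHT were Rgs5, at 73.6, 19.7 and 18.3 CPM in 3.86%, 3.56% and 3.44% of cells, and the immediate early gene Egr3, at 54.9, 16.4 and 52 CPM. Rgs5 is a pericyte gene, and its counts in TpitWT lay in 8 cells. Immediate early genes, which tissue dissociation is known to induce, were high in every library, with Fos at 2929.6, 2885 and 3316 CPM and Jun at 3444, 3446 and 4205 CPM.

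The genotype differences of cluster 9 were set beside those of 3 other non-endocrine clusters. These were cluster 8, marked by the macrophage gene C1qa at 5556, 6693 and 6429 CPM, cluster 10, marked by the stem cell gene Sox2 at 568, 505 and 606 CPM, and cluster 15, marked by the fibroblast gene Dcn at 13807, 17915 and 15939 CPM. The lower level of glucocorticoid-induced genes in TpitKO was not confined to cluster 9. The median log2 ratio of that list to TpitWT was -0.42 in cluster 9, -0.77 in cluster 8, -0.36 in cluster 10 and -0.78 in cluster 15, against 0.09, 0.02, 0.01 and 0.08 over all genes. Sult1a1 stood at 44.9, 44.1 and 20.7 CPM in cluster 8, 44.6, 42.1 and 11.9 in cluster 10 and 125, 126 and 39.5 in cluster 15. Fkbp5 was lowest in TpitKO in all 4 clusters.

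Interferon response genes had medians of 0.30, 0.63 and 0.74 in clusters 8, 10 and 15, where 9 of 14, 13 of 13 and 7 of 7 genes were higher in TpitKO. Over all genes of these clusters 3210 of 6104, 4597 of 8997 and 1936 of 3346 were higher. Basement membrane genes had medians of 0.12 in cluster 10 and 0.32 in cluster 15, where 6 of 11 and 13 of 13 genes were higher. In cluster 8 only 1 of them had enough counts. Lamc1 had a log2 ratio of 1.63 in cluster 9, -0.02 in cluster 10 and 0.55 in cluster 15.

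For Ccn2 and Igf1 the log2 ratio of cluster 9 was the farthest from 0 among the 4 clusters, and the differences between clusters were not tested. Ccn2 was read at 24.3, 109 and 118 CPM in cluster 15, so it was lowest in TpitWT there while lowest in TpitKO in cluster 9, and it stayed under 20 CPM in clusters 8 and 10. Igf1 stood at 26.9, 25.1 and 58.3 CPM in cluster 8, 10.8, 19.2 and 16 in cluster 10 and 69.5, 80.9 and 104 in cluster 15. Its log2 ratio of TpitKO to TpitWT was 3.08 in cluster 9, 0.89 in cluster 8, 0.32 in cluster 10 and 0.52 in cluster 15. The graded order of Igf1 was not particular to cluster 9: in cluster 1, a larger cluster, it stood at 1.30, 3.75 and 18.5 CPM from 18, 69 and 180 counts. In TpitKO the level in cluster 9 was close to that of cluster 15, whereas in TpitWT it lay far below. Sox17, Mmrn1 and Oit3 had at most 5 counts in any library of these 3 clusters.

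**Figure D5:**
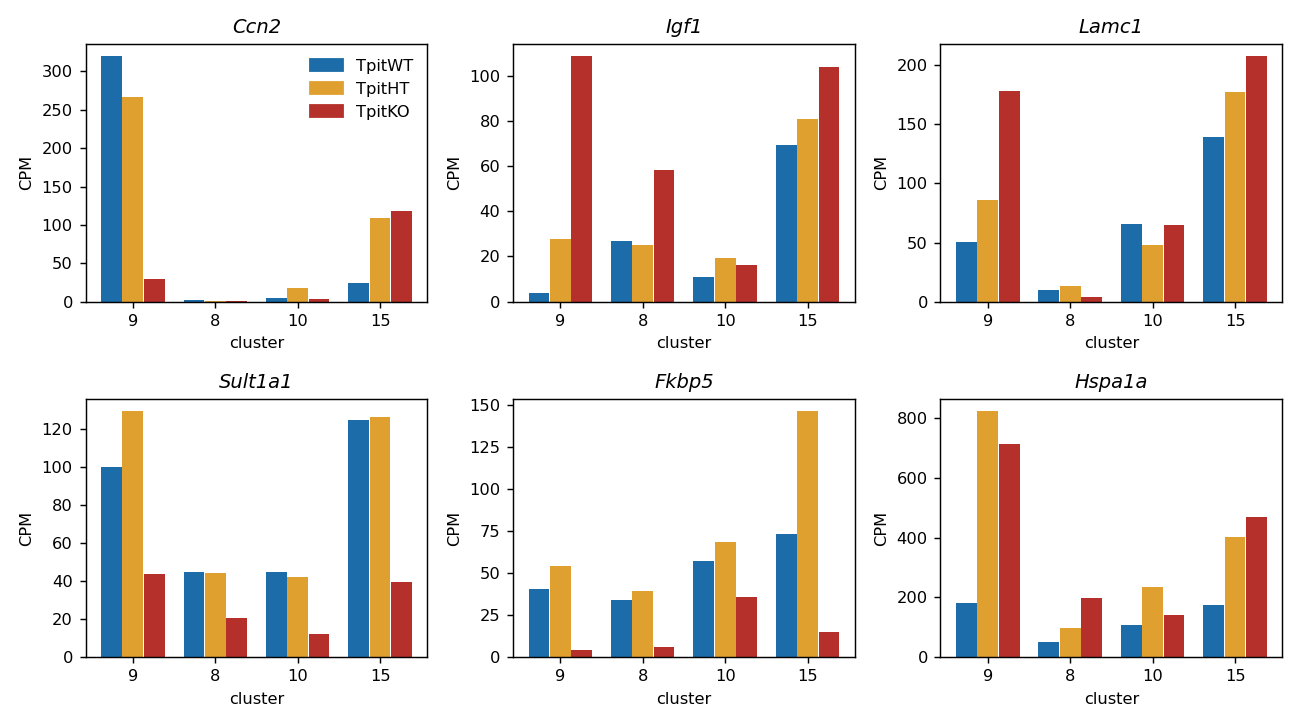
Levels of 6 genes in cluster 9 and in clusters 8, 10 and 15, in CPM on linear axes that start at 0, with 1 bar per library. Sult1a1 and Fkbp5 are lowest in TpitKO in all 4 clusters, while Ccn2 is lowest in TpitKO in cluster 9 (29.8 CPM) and lowest in TpitWT in cluster 15 (24.3 CPM).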

How the data were processed

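The authors deposited counts per gene, summed for every cluster within each genotype (55403 gene rows and 61 combinations; unit counts, whole numbers per the file headers and values). They also deposited the number of cells with a count, a table of the same sums times 1 factor per column (unit signal, the authors' scaled counts, used as an alternative only), and a table of barcodes with UMAP positions as score values and cluster numbers. Cell Ranger 5, Seurat 3.1 and DESeq2, with the builds mm10 and GRCm38, were used per the submitters' processing notes, which as given here assign them no role. Coordinates are those of the deposited table. Whether strand was used in counting, or reads collapsed to molecules, is not given in the sources used here.

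Rows of 1 symbol were added (110 rows, leaving 55293 symbols). CPM were computed over all genes of a cluster, and log2 ratios after adding 10 CPM. Poisson, Clopper-Pearson and conditional binomial intervals are exact (95%) and came from scipy 1.17.1 under Python 3.11.15. No test was run, since each genotype had 1 library. The log2 ratios and intervals were also computed on simulated Poisson counts with known folds. Such counts are independent, so they cannot check the intervals where counts lie in few cells.

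Genes named from the comparison of TpitKO with TpitWT were up to 15 each way past the fold, ordered by size, with at least 50 CPM where higher and at least 2 times the other cells there. For TpitHT against TpitWT they were up to 5 each way by the same level rule, and for the cluster itself the 20 with the highest lowest-of-3 ratio at 100 CPM or more. Left out of these rankings were genes of mitochondria, ribosomes and hemoglobin, sex-linked genes and predicted ones. From each of 30 lists, up to 4 genes of highest mean CPM and up to 4 of largest ratio each way were eligible, along with markers of cell types and members at 0. Named outside the rule, after their values were seen, were Esm1, Mki67, Top2a, Fkbp5, Nr3c1, Slc7a5, Ocln, Mfsd2a, Lef1, Selp, Sele and Ackr1. Alternatives, whose effect is given at the end, changed the pseudocount, the count minimum, the totals and the measure, and subtracted free RNA, taken as the level over all cells times the ratio of Gh in cluster 9 to Gh over all cells. The members and lists were chosen with earlier results of these data known. Doublets were not treated beyond the authors' own steps, and shares of cells with a count were not thinned to equal depth, since counts per cell were not used here.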

Additional observations from a re-analysis of the deposited data

Results flagged for a closer look

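For 2 of the 19 genes named from the comparison of TpitKO with TpitWT, the ratio had opposite signs in cluster 9 and in another non-endocrine cluster, at a log2 size of at least 1 in both. The difference between clusters was not tested, since each rests on 1 library per genotype. For Ccn2 the log2 ratio was -3.05 in cluster 9 and 1.90 in cluster 15, where its level was 24.3, 109 and 118 CPM and 7, 55 and 81 counts stood behind it. For Fgl2 the log2 ratio was -1.12 in cluster 9 and 1.14 in cluster 8, with levels of 112, 152 and 46.5 CPM in cluster 9 and 62.8, 118 and 151 CPM in cluster 8. Cluster 15 held 57 TpitWT and 144 TpitKO cells and cluster 8 held 307 and 417.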

How the results depend on the processing

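No paired analysis was possible because only 1 library stood for each genotype. The ratio of endothelial shares, TpitKO over TpitWT, moved from 2.23 to 1.87 outside clusters 6 and 7. The counts of genes past the fold depended on the settings. TpitKO against TpitWT, 27 higher and 25 lower, became 96 and 50 with a pseudocount of 1 CPM, 4 and 7 with one of 50 CPM, and 6 and 6 at 200 counts or more. Without a count filter 49 were lower, with free RNA subtracted 69 were higher, and by the share of cells with a count 64 were higher. TpitHT against TpitWT, 64 higher and 57 lower, became 133 and 97 with 1 CPM, 14 and 12 with 50 CPM, 131 and 188 without a filter, 20 and 14 at 200 counts, and 129 and 114 with free RNA subtracted. It became 42 and 87 with hormone and mitochondrial genes out of the totals, and 40 were higher with hemoglobin genes out too, a setting chosen after seeing the data. By the share of cells with a count, 143 genes in place of 239 set cluster 9 apart at 10 times or more. Subtracting free RNA reversed the median log2 ratio to TpitWT of the endothelial identity list, from 0.21 to -0.21, and of the lipid handling list, to -0.059. It moved the interferon, basement membrane, arterial and Notch medians to 0.11, 0.17, 0.30 and 0.22, the glucocorticoid-induced median to -0.58, the antigen presentation median to -0.09 and that of immediate early and heat shock genes to -0.01. The share of the level over all cells that was subtracted was 0.388, 0.185 and 0.166, so the largest share came out of TpitWT. How far the moves follow from this unequal subtraction itself was not tested. None of the 19 named genes changed direction under the 9 alternatives, and 5 of them, Igf1, Aqp1, Lamc1, Ccn2 and Xdh, kept a log2 ratio to TpitWT of 1 or more, or -1 or less, under all of them. A changed count minimum cannot alter the ratio of a gene, so those settings could not show a change. At 200 counts Aqp1 and Xdh, with 130 and 143 counts in TpitWT and TpitKO together, would not enter the comparison. The 19 genes were also chosen for large ratios in these same data. Lists beyond the 9 whose medians are given here were not recomputed. Depth limits cluster 9 of TpitWT most: 1 count there equals 1.34 CPM.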

Other observations

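Of 15 genes of blood clotting and vessel tone, 9 had at least 50 counts in TpitWT and TpitKO together. Of these, 8 were higher in TpitKO than in TpitWT, 6 were higher than in TpitHT and none passed the fold, against 60.4% and 55.6% of all genes that were higher. Nos3, the endothelial nitric oxide synthase, was read at 32.1, 36.9 and 71.6 CPM and found in 8.21%, 9.96% and 19.7% of cells. Thbd, the anticoagulant thrombomodulin, stood at 139, 187 and 217 CPM and the cyclooxygenase gene Ptgs1 at 106, 153 and 174 CPM. TpitKO was 1.94 times (interval 1.39 to 2.76) the level of TpitHT for Nos3.

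Carriers of insulin-like growth factors were abundant in cluster 9, with Igfbp7 at 1654, 2413 and 2212 CPM, Igfbp5 at 602, 883 and 905 CPM and Igfbp4 at 232, 293 and 176 CPM. The receptor gene Igf1r, at 41.5, 33.6 and 30.3 CPM, was below its level of 75.8, 73 and 81.7 CPM in the other cells. Igf2 had no count in any library.

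Mrc1, the mannose receptor gene, fell under the count minimum with 31, 41 and 14 counts and was noticed after its values were seen. It stood at 41.5, 33.6 and 5.97 CPM in cluster 9 and was found in 8.7%, 7.83% and 1.81% of cells, while C1qa, a macrophage gene, was found in 0.966%, 1.07% and 0.906%. Of the macrophage genes with enough counts, Fcer1g was lower and Lyz2 higher in TpitKO than in TpitWT. The 11 macrophage genes, Mrc1 among them, summed to 85.7, 154 and 140 CPM. Which cells the Mrc1 counts came from was not tested.

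Hemoglobin genes took 929, 14710 and 1578 CPM of cluster 9, against 11.8, 59.5 and 126 CPM in the other cells. Hbb-bs, a beta globin gene, was found in 1.45%, 2.85% and 5.62% of cells, or 3, 8 and 31 cells. Alas2, an enzyme of heme synthesis in red cell precursors, had 0, 36 and 3 counts. Whether these were doublets with blood cells was not tested. Hemoglobin genes took 1.47% of the counts of cluster 9 in TpitHT.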
